A study of Mus musculus with 12 samples.

Results

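The microRNA miR-335 was followed in mouse skin across 4 doses of ultraviolet B (UVB), the band of ultraviolet light behind sunburn. It is represented by the mature arms mmu-miR-335-3p and mmu-miR-335-5p, 2 of the 1519 mature miRNA arms in the deposited table, and both were found by name. The pair was chosen from these same libraries, on its higher levels after UVB than in control skin. Its differences between doses are therefore given as a description, with standard errors and with no p-value. All mice were of the inbred strain C57BL/6 and were 6 to 8 weeks old. Controls were not irradiated (0 mJ/cm2), and the other groups received 90, 180 or 360 mJ/cm2 from a phototherapy lamp, with 3 libraries in each of the 4 groups. Whole skin was frozen and its small RNA sequenced; the time from irradiation to sampling is not given in the sources used here. Whether the 3 libraries of a group are 3 mice is not in the labels, so the spread between them, and any p-value resting on it, may be technical.

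A miRNA hairpin is cut by the enzymes Drosha and Dicer into a short duplex, and a strand of it is loaded into an Argonaute protein, where bases 2 to 8, the seed, pair with target mRNAs. The strand from the 5′ side of the hairpin is called 5p and that from the 3′ side 3p; either can be loaded, and the strand that is not loaded is usually degraded. miR-335 lies within Mest (mesoderm-specific transcript, also called Peg1), an imprinted gene that is transcribed from the paternal allele, is active in mesoderm and its derivatives, and encodes a protein of the alpha/beta hydrolase fold. In human breast cancer cells, miR-335-5p is known to repress the transcription factor SOX4 and the matrix protein tenascin C.

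The sequences of the precursor and of both arms are shown because the arms come from the same RNA but carry different seeds. They are RefSeq's, on build GRCm38.p6, plus strand. Capitals mark the mature arms in the precursor and the seed (bases 2 to 8) in each arm. The precursor of 98 bases lies at chr6:30741299-30741396, the 5p arm at chr6:30741314-30741336 and the 3p arm at chr6:30741354-30741375.
Mir335 precursor: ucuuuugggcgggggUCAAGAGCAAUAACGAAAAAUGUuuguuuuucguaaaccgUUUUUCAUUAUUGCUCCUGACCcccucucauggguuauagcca
miR-335-5p: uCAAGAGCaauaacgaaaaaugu
miR-335-3p: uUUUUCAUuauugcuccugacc

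Of the 11 Mest transcripts in GENCODE's GRCm38 annotation, 7 span the precursor. In all 7 it falls in the intron at chr6:30740825-30742140, 474 bases from its start and 744 bases from its end, and it overlaps no exon. In a predicted fold of the precursor (RNAfold, minimum free energy -44.3 kcal/mol), 18 of the 23 bases of the 5p arm pair with bases of the 22-base 3p arm. Both arms begin with U, and G or C make up 30.4% of the 5p arm and 36.4% of the 3p arm. The seeds are CAAGAGC for 5p and UUUUCAU for 3p. Among the 1679 mature arms in the RefSeq table, no other arm had either seed, and each miR-335 arm had 1 locus.

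The libraries held 3164422 to 8063815 miRNA reads. Values are in CPM, counts of an arm per 1000000 miRNA reads in the library, and 590 arms that reached 1 CPM in at least 3 libraries were compared, both miR-335 arms among them. miR-335-3p rested on 97 to 1143 reads per library and miR-335-5p on 56 to 483. The libraries of a dose were not always alike. The keratinocyte and other epithelial miRNAs (14 arms of the miR-200 family, miR-203 and miR-205) summed to 28299 CPM in UVB_90 replicate 3, against 82148 and 89052 CPM in replicates 1 and 2. They summed to 41379 CPM in UVB_180 replicate 1, against 90933 and 95669 CPM in replicates 2 and 3. All 14 arms were above 0 in at least 1 library, as were all 9 arms of the skeletal muscle list (miR-1a, miR-133a, miR-133b and miR-206). The skeletal muscle list summed to 193376 to 229075 CPM in controls. It summed to 157890 to 173612, 82100 to 187284 and 153730 to 202507 CPM at 90, 180 and 360 mJ/cm2.

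miR-335-3p was the arm with the wider change. In control skin it was measured at 12.03, 21.2 and 40.4 CPM in replicates 1, 2 and 3. At 90 mJ/cm2 the values were 91.9, 171 and 235 CPM, at 180 mJ/cm2 they were 126, 141 and 183 CPM, and at 360 mJ/cm2 they were 159, 232 and 104 CPM. All 9 irradiated libraries lay above all 3 controls, and the 3 irradiated groups overlapped one another. The controls spanned a 3.36-fold range, and their exact Poisson 95% intervals (9.76 to 14.7, 17.7 to 25.2 and 34.2 to 47.3 CPM) did not overlap. The spread was narrowest at 180 mJ/cm2, where the highest library was 1.46 times the lowest, against 2.55 times at 90 mJ/cm2 and 2.23 times at 360 mJ/cm2.

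miR-335-5p was lower than its partner after UVB but closer among replicates. Control replicates 1, 2 and 3 had 18.8, 19.03 and 14.9 CPM, with overlapping Poisson intervals (15.97 to 22.1, 15.7 to 22.8 and 11.2 to 19.3 CPM). At 90 mJ/cm2 the values were 45.2, 59.9 and 92.6 CPM, at 180 mJ/cm2 they were 62.0, 71.7 and 75.3 CPM, and at 360 mJ/cm2 they were 119, 97.6 and 72.4 CPM. As for the 3p arm, all 9 irradiated libraries lay above the 3 controls. UVB_360 replicates 1 and 2 were above every other library, while UVB_360 replicate 3 lay within the range of the 180 mJ/cm2 group.

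**Figure D1:**
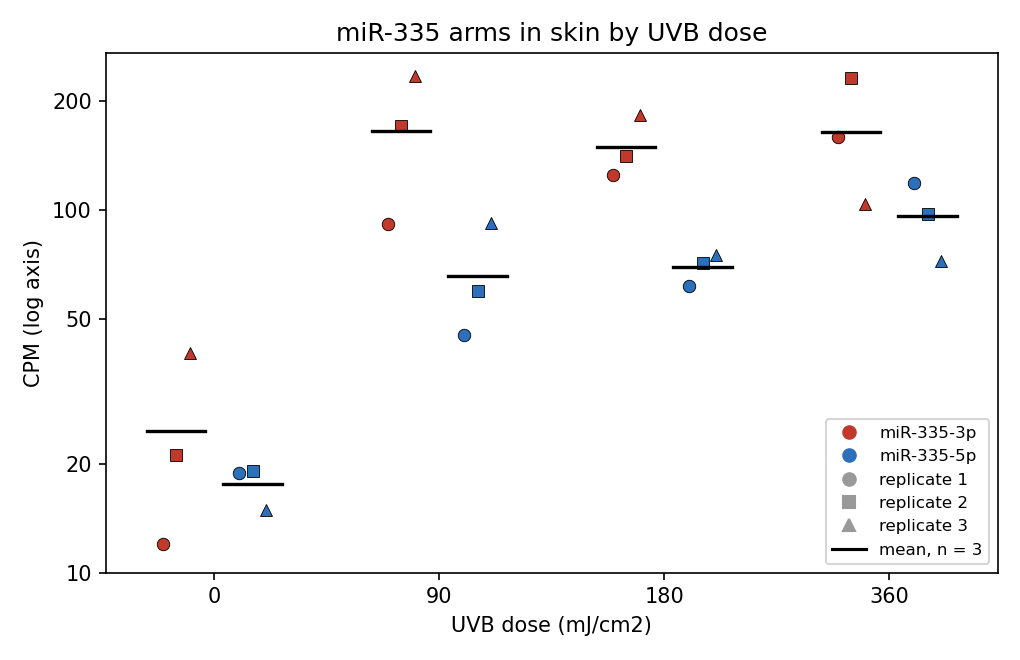
CPM (log axis) of miR-335-3p and miR-335-5p in each library, by UVB dose in mJ/cm2; the marker shape gives the replicate and the bar the mean of 3 libraries. Every irradiated library lies above the controls for both arms, and the control values of the 3p arm spread from 12.03 to 40.4 CPM.

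The mean of miR-335-3p was 24.5 ± 14.5 CPM in controls and 166 ± 71.5, 150 ± 29.9 and 165 ± 64.2 CPM at 90, 180 and 360 mJ/cm2 (SD, n = 3 each). In log2(CPM + 1), a scale on which changes of scarce arms come out too small, it was higher than control by 2.77 ± 0.41 at 90 mJ/cm2, by 2.71 ± 0.41 at 180 mJ/cm2 and by 2.79 ± 0.41 at 360 mJ/cm2 (SE from limma). The median difference over all 590 arms was 0.04, 0.06 and 0.02 at these doses. Between irradiated groups the 3p arm differed by -0.06 ± 0.41 (180 against 90 mJ/cm2) and 0.08 ± 0.41 (360 against 180 mJ/cm2), both smaller than their errors. Its level thus had no order among the 3 doses that exceeded the spread.

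The mean of miR-335-5p was 17.6 ± 2.35 CPM in controls and 65.9 ± 24.2, 69.7 ± 6.85 and 96.3 ± 23.3 CPM at 90, 180 and 360 mJ/cm2 (SD, n = 3 each). The log2 differences from control were 1.79 ± 0.27, 1.93 ± 0.27 and 2.37 ± 0.27. In order of mean, 90, 180 and 360 mJ/cm2 followed the control, and each neighbouring pair of irradiated groups overlapped: the step was 0.14 ± 0.27 from 90 to 180 mJ/cm2 and 0.44 ± 0.27 from 180 to 360 mJ/cm2. The groups at 90 and 360 mJ/cm2 also overlapped, with a difference of 0.57 ± 0.27. These differences share libraries and are not independent of each other.

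By level, miR-335-3p ranked 262 of 590 arms in control means and 143, 150 and 131 at 90, 180 and 360 mJ/cm2, and miR-335-5p went from rank 284 to 192, 197 and 174. By size of the increase on the log2 scale, miR-335-3p ranked 1 of 590 at 90 and 180 mJ/cm2 and 7 at 360 mJ/cm2, and miR-335-5p ranked 12, 11 and 17. No overlap with controls in the upward direction was found for both arms at all 3 doses, and for 19.8%, 24.2% and 26.1% of all arms at 90, 180 and 360 mJ/cm2. Since the pair was chosen on these contrasts, nothing is read from its ranks or from this count.

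**Figure D2:**
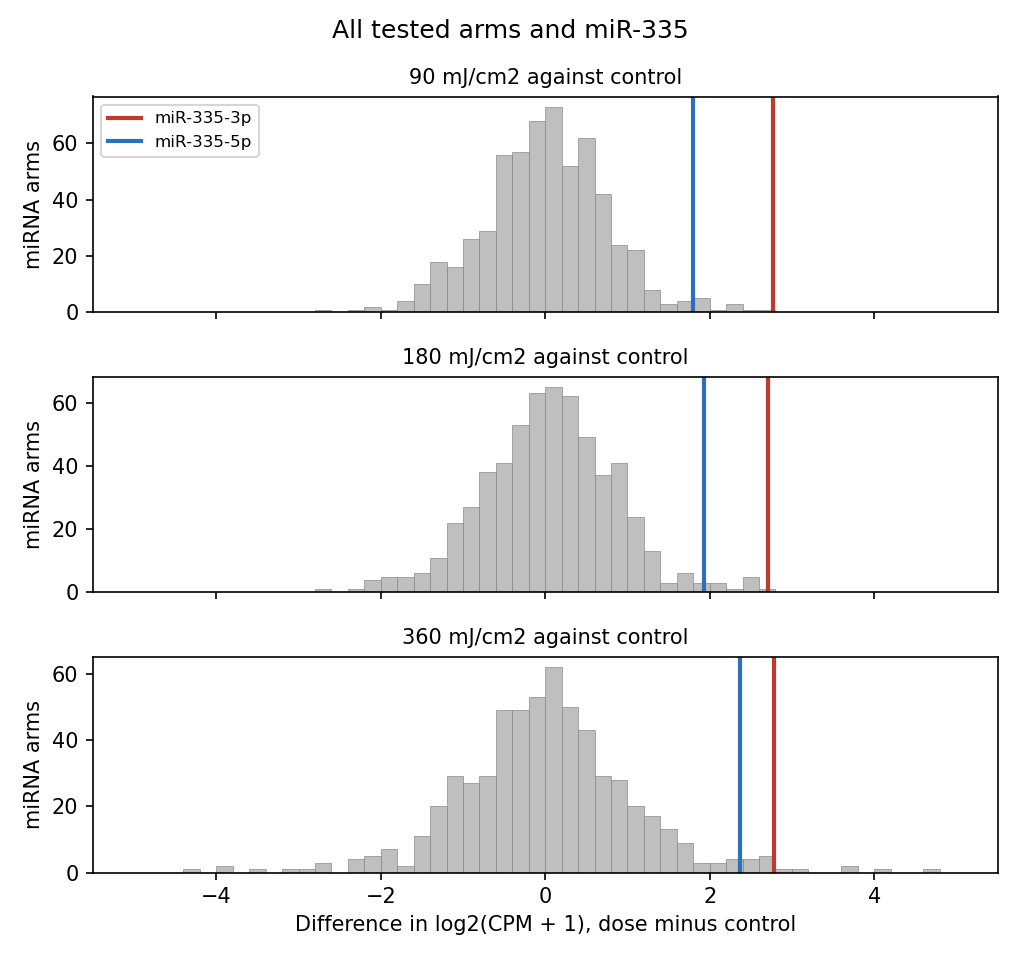
Number of miRNA arms by difference in log2(CPM + 1) from control at each dose, for the 590 arms compared; lines mark the miR-335 arms. The lines lie at 2.77, 2.71 and 2.79 for 3p and at 1.79, 1.93 and 2.37 for 5p, in the upper tail of each distribution.

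The balance between the arms can be read within a library and so needs no scaling between libraries. Ligation during library preparation favours some RNA ends over others, so the share of an arm is not its share in the tissue. The bias is shared only by libraries made the same way, and whether it was the same in all libraries here was not tested. The 3p arm made up 39.0% of the miR-335 reads in control replicate 1 (95% Wilson interval 33.1% to 45.1%, counting error only), 52.7% (46.4% to 58.9%) in replicate 2 and 73.1% (66.7% to 78.6%) in replicate 3. At 90 mJ/cm2 it made up 67.0%, 74.1% and 71.7%, and at 180 mJ/cm2 66.9%, 66.3% and 70.9%. At 360 mJ/cm2 the shares were 57.3%, 70.4% and 59.0%.

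Control replicate 3 thus had a 3p share within the range of the 90 mJ/cm2 libraries, while its 5p level, 14.9 CPM, was the lowest of all libraries. Control replicates 1 and 2 lay below every irradiated library in 3p share. They also held the most reads of all libraries (8063815 and 6044080), against 3764459 in control replicate 3 and at most 5060781 after UVB. Among controls, the 3p share and the 3p level were higher where the library held fewer reads. No irradiated group had this order. The part of sequencing depth or preparation in the control values was not tested. In 3p share, UVB_360 replicates 1 and 3 lay below all libraries of 90 and 180 mJ/cm2, and UVB_360 replicate 2 did not. The means were 54.9% ± 17.2 in controls, 70.9% ± 3.59 at 90 mJ/cm2, 68.1% ± 2.48 at 180 mJ/cm2 and 62.2% ± 7.15 at 360 mJ/cm2 (SD, n = 3 each). As the sum of both arms, miR-335 went from 42.1 ± 12.3 CPM in controls to 232 ± 95.04, 220 ± 36.0 and 261 ± 78.0 CPM.

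**Figure D3:**
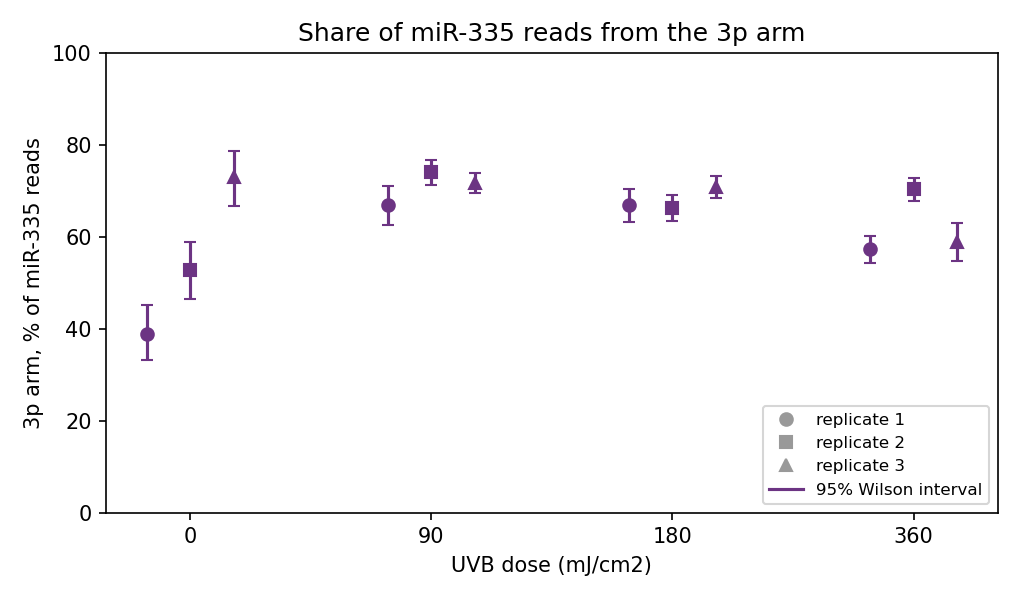
Share of miR-335 reads that came from the 3p arm, in percent, for each library by UVB dose in mJ/cm2; bars are 95% Wilson intervals and the marker shape gives the replicate. The 3 controls span 39.0% to 73.1%, and the 180 mJ/cm2 libraries 66.3% to 70.9%.

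The same log2 ratio of 3p to 5p was taken for the 84 hairpins whose arms both averaged at least 10 CPM. The SD of this ratio among the 3 controls was 1.004 for miR-335, second in rank to a largest value of 1.18, where the median hairpin had 0.39. The ratio of miR-335 was higher than in controls by 0.97 at 90 mJ/cm2, 0.78 at 180 mJ/cm2 and 0.42 at 360 mJ/cm2. Those sizes ranked 16, 23 and 44 of the 84 hairpins, whose median size was 0.38, 0.47 and 0.43. The change at each dose was no larger than the SD of the controls. Without control replicate 1 it was 0.52, 0.32 and -0.04, and without control replicate 3 it was 1.51, 1.31 and 0.96, so its size, and at 360 mJ/cm2 its direction, turned on which control was left out. The hairpins whose ratio moved most at 360 mJ/cm2 were miR-200a (-2.90) and miR-141 (-1.95), both epithelial, and miR-145a (1.79), of smooth muscle and fibroblasts.

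Other miRNAs were ranked by how closely they followed each miR-335 arm over the 12 libraries, by the root mean square (RMS) difference of log2(CPM + 1) after each arm was centred on its own mean. This measure covered the 337 other arms with a mean of at least 10 CPM and is a description: the arms share the libraries and the controls. Closest to miR-335-5p was miR-132-5p, at an RMS difference of 0.28 log2 units, where the median arm had 1.04. miR-21a-5p (0.34), miR-129-5p (0.36), miR-132-3p (0.38) and miR-34c-5p (0.42) followed. miR-132 is induced through the transcription factor CREB in neurons, miR-34c is a target of p53, miR-21a is induced in wounded and inflamed tissue, and miR-129 is best known from the nervous system.

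Closest to miR-335-3p was miR-212-5p, from a hairpin beside that of miR-132, at an RMS difference of 0.48 log2 units, where the median arm had 1.37. miR-21a-5p (0.51), its own partner miR-335-5p (0.60), miR-132-5p (0.65) and miR-129-5p (0.66) followed. Seen from the 5p side, the partner ranked 39 of 337, so many arms of other hairpins lay closer to miR-335-5p than the strand cut from the same precursor. The RMS difference also grows where arms differ in the size of their change or in replicate spread. The log2 SD of the controls was 0.83 for the 3p arm and 0.19 for the 5p arm, and the 3p arm rose more at each dose. miR-132-5p had 9.30 to 9.76 CPM in controls and 29.6 to 54.0, 31.4 to 47.9 and 38.0 to 53.0 CPM at 90, 180 and 360 mJ/cm2. miR-212-5p had 2.48 to 5.79 CPM in controls and 18.3 to 34.7, 11.7 to 22.5 and 14.5 to 25.2 CPM. For both, as for the miR-335 arms, no irradiated library reached down to the controls. Both were picked for following the miR-335 arms over these libraries, so nothing is read from this. Of all arms, 19.8%, 24.2% and 26.1% were higher than controls with no overlap at 90, 180 and 360 mJ/cm2.

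**Figure D4:**
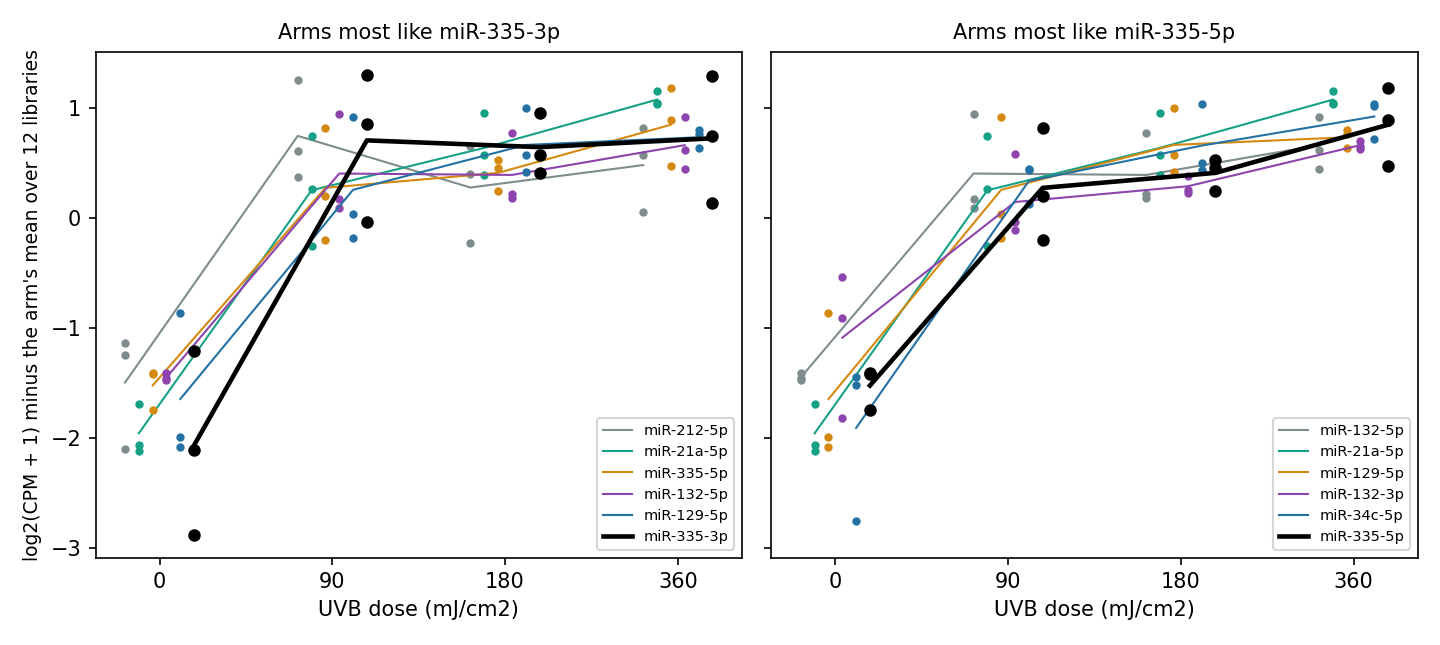
log2(CPM + 1) minus the arm's mean over 12 libraries, by UVB dose in mJ/cm2, for each miR-335 arm (black) and the 5 arms closest to it by RMS difference; points are libraries and lines join the means of 3. The mean of the miR-335-3p controls lies below the control means of the 5 arms closest to it, and miR-335-5p runs with miR-132-5p (RMS difference 0.28).

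miRNAs of the imprinted Dlk1-Dio3 locus and of the imprinted genes H19, Igf2 and Gnas were taken as a group akin to a Mest miRNA; other imprinted loci were not listed. They were tested with limma over all 590 arms, against 13.2%, 16.6% and 20.2% of all arms called higher and 12.4%, 14.1% and 19.7% called lower at 90, 180 and 360 mJ/cm2. Of 79 arms from the Dlk1-Dio3 locus, whose miRNAs come from the maternal allele, 13 rose and 6 fell at 90 mJ/cm2, 21 rose and 6 fell at 180 mJ/cm2, and 20 rose and 6 fell at 360 mJ/cm2. Their median log2 difference was 0.30, 0.41 and 0.30, where the median of all arms was 0.04, 0.06 and 0.02. Without control replicate 1 the counts were 2 up with 0 down, 3 up with 1 down and 11 up with 2 down, and at 90 mJ/cm2 7 rose and 0 fell without UVB_90 replicate 2, and 3 rose and 4 fell without UVB_90 replicate 3. Without UVB_90 replicate 3 and control replicate 3, 3 rose and 9 fell, so at this dose the balance turned. At 180 mJ/cm2 6 rose and 1 fell without UVB_180 replicate 3, and 8 rose and 3 fell without UVB_180 replicate 2. At 360 mJ/cm2 13 rose and 4 fell without UVB_360 replicate 2, 16 rose and 7 fell with TMM factors, and 26 rose and 1 fell with totals that leave out miR-1a-3p and miR-21a-5p.

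Among them at 360 mJ/cm2, miR-379-5p went from 1565 ± 172 to 4020 ± 330 CPM (n = 3 each; limma log2 difference 1.36 ± 0.21, adjusted p = 0.00014). miR-134-5p went from 139 ± 26.0 to 345 ± 13.2 CPM (1.32 ± 0.21, limma adjusted p = 0.00016), and miR-382-5p from 78.2 ± 13.03 to 192 ± 24.4 CPM (1.29 ± 0.23, limma adjusted p = 0.00042). In each of the 3, no library of 360 mJ/cm2 overlapped the controls. They were named for the smallest p of their list at this dose, so nothing is read from the lack of overlap. Of all arms, 26.1% were higher with no overlap at 360 mJ/cm2. Of the 8 arms listed for H19 (miR-675), Igf2 (miR-483) and Gnas (miR-296, miR-298), 5 were abundant enough to test. None passed at any dose by limma, with 0, 0 and 2 at an unadjusted p under 0.05 at 90, 180 and 360 mJ/cm2. By edgeR 0, 0 and 1 passed and by DESeq2 0, 0 and 2, all of them lower, and without control replicate 1 limma called 2 lower at 360 mJ/cm2. Their summed level was 47.5 to 111 CPM in controls and 37.0 to 49.7 CPM at 360 mJ/cm2.

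Like miR-335, many miRNAs lie in introns of protein-coding genes. Of 73 tested arms on a list of such hairpins, 5 rose and 9 fell at 90 mJ/cm2. At 180 mJ/cm2 5 rose and 11 fell, and at 360 mJ/cm2 9 rose and 11 fell. Intronic miRNAs outside the list were not counted. Among all arms 13.2%, 16.6% and 20.2% were called higher and 12.4%, 14.1% and 19.7% lower. The shares of the listed intronic arms called (6.85%, 6.85% and 12.3% higher, 12.3%, 15.1% and 15.1% lower) were near or below those of all arms. At 360 mJ/cm2 the balance turned with the scaling. It was 7 up and 21 down with TMM factors, and 18 up and 9 down with totals that leave out miR-1a-3p and miR-21a-5p. Without control replicate 1, 0 rose and 2 fell at 90 mJ/cm2, and 1 rose and 5 fell at 180 mJ/cm2; without control replicate 2 the counts were 2 up with 5 down and 3 up with 7 down. Without UVB_90 replicate 3, 0 rose and 7 fell at 90 mJ/cm2, and without UVB_180 replicate 3, 2 rose and 7 fell at 180 mJ/cm2. miR-126a-3p, from the endothelial gene Egfl7, went from 8233 ± 147 to 22824 ± 1854 CPM at 360 mJ/cm2 (n = 3 each; log2 difference 1.47 ± 0.19, limma adjusted p = 2.6e-05). miR-204-5p, from Trpm3, fell by 2.70 ± 0.29 log2 units (limma adjusted p = 8.1e-06), and miR-211-5p, from the melanocyte gene Trpm1, fell by 3.93 ± 0.55 (limma adjusted p = 6.4e-05).

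Whole skin mixes cell types, and fewer cells of a type cannot be told apart from less RNA per cell. The fibroblast and smooth muscle list, 10 arms of miR-143, miR-145a, miR-199 and miR-214, summed to 93167 to 124027 CPM in controls and to 113953 to 150521, 108323 to 136280 and 97570 to 129583 CPM at 90, 180 and 360 mJ/cm2. Of all arms, 20.2% were called higher and 19.7% lower at 360 mJ/cm2. At that dose 5 of the 10 fibroblast and smooth muscle arms rose and 3 fell, with 2 up and 1 down without UVB_360 replicate 1, 2 up and 2 down without UVB_360 replicate 2, and 3 up and 1 down without control replicate 1. Those that rose include miR-199a-3p and miR-199b-3p, whose values are identical in every library. miR-214-5p rose from 144 ± 51.1 to 386 ± 62.6 CPM and miR-145a-5p fell from 1443 ± 268 to 612 ± 168 CPM (n = 3 each; limma adjusted p = 0.00082 and 0.00035). The myeloid and leukocyte list, 10 arms of miR-223, miR-142a, miR-147, miR-511 and miR-155, summed to 550 to 732 CPM in controls and to 957 to 2491, 903 to 1761 and 3604 to 4886 CPM, and at 360 mJ/cm2 8 of its 10 arms rose, where 20.2% of all arms were called higher. The epithelial list summed to 81645 to 95481 CPM in controls and to 11814 to 36746 CPM at 360 mJ/cm2, where 11 of 13 tested arms fell and 19.7% of all arms were called lower.

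Both arms of endothelial miR-126a together had 8303 to 8774 CPM in controls and 11276 to 16516, 16862 to 20385 and 21891 to 25249 CPM at 90, 180 and 360 mJ/cm2. The 4 pigment cell arms, of miR-204 and miR-211, summed to 97.8 to 161 CPM in controls and to 26.9 to 89.0, 22.2 to 43.0 and 9.80 to 12.8 CPM. The 3 red blood cell arms, of miR-451a and miR-144, summed to 450 to 850 CPM in controls and to 449 to 1020, 286 to 682 and 485 to 1088 CPM. No arm of these lists was at 0 in every library. At 90 mJ/cm2 both miR-335 arms were highest in replicate 3, the library poorest in epithelial and richest in myeloid miRNAs (2491 CPM). At 360 mJ/cm2 miR-335-3p was highest in replicate 2, the library of its dose with the most epithelial (36746 CPM) and the least myeloid reads (3604 CPM). At that dose miR-335-5p was highest in replicate 1 (119 CPM), a library with 13349 CPM of epithelial and 3705 CPM of myeloid miRNAs. At 180 mJ/cm2 both arms were highest in replicate 3. This library had the most epithelial (95669 CPM) and the least skeletal muscle reads (82100 CPM) of its dose. It also had the most fibroblast and smooth muscle reads of its dose (136280 CPM), as did replicate 3 at 90 mJ/cm2 (150521 CPM). At 360 mJ/cm2 replicate 1 had the most (129583 CPM) and replicate 3, where both arms were lowest, the fewest (97570 CPM). At 180 mJ/cm2 the fewest were in replicate 2 (108323 CPM), but both arms were lowest in replicate 1. In controls the order was also different: miR-335-3p was highest in replicate 3, which had the fewest (93167 CPM). In every group miR-335-3p was highest in the library with the least skeletal muscle reads. These were control replicate 3 (193376 CPM), UVB_90 replicate 3 (157890 CPM), UVB_180 replicate 3 and UVB_360 replicate 2 (153730 CPM). For miR-335-5p this held at 90 and 180 mJ/cm2 but not in controls or at 360 mJ/cm2. The library lowest in miR-335-3p had the most skeletal muscle reads only at 360 mJ/cm2 (202507 CPM). The part of cell composition in the miR-335 levels was not tested.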

How the data were processed

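Small RNA from frozen skin was extracted with Trizol, and, per the labels' protocols, an Illumina NextSeq read NEBNext small RNA libraries made from it. The submitters' processing notes name build mm9; which aligner, counter and miRBase release were used is not stated there. The authors deposited CPM, which sum to 1000000 in each of the 12 libraries, for 1519 arms. In every library 100% of values were whole multiples of 1 read (tolerance 0.01), so reads were recovered.

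Groups came from sample titles. limma-trend (limma 3.58.1, R 4.3.3) was fitted to log2(CPM + 1) of the arms reaching 1 CPM in 3 or more libraries, with a mean for each of the 4 groups, and p-values (two-sided) were adjusted by Benjamini-Hochberg over all 590 arms, with a threshold of 0.05. It called 151, 181 and 235 arms at 90, 180 and 360 mJ/cm2. On the recovered reads edgeR 4.0.16 (quasi-likelihood) called 172, 199 and 254, and DESeq2 1.42.0 called 177, 198 and 250. Of the limma calls 51.7%, 54.1% and 50.6% were up, against 42.7%, 41.2% and 41.1% with TMM factors and 60.0%, 63.3% and 65.2% when totals leave out miR-1a-3p and miR-21a-5p.

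The members, lists and named arms were chosen with earlier results of these data known. Arms named were both miR-335 arms, the 5 closest to each by RMS difference, all called arms of lists with up to 8 tested arms or the 3 of smallest p at 360 mJ/cm2 in longer lists, and the 3 hairpins with the largest ratio changes; not all are mentioned. Seeds and positions came from RefSeq and GENCODE on GRCm38, and the fold from RNAfold 2.7.2. RefSeq sequences matched 501 of the 590 arms by name. Reads carry no molecular identifiers, so intervals cover counting error only.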

Additional observations from a re-analysis of the deposited data

How the results depend on the processing

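Over 10 alternatives of processing and over leaving out libraries, both miR-335 arms were higher than control at every dose. The log2 difference of miR-335-3p ranged from 2.36 to 3.19 at 90 mJ/cm2, 2.30 to 3.13 at 180 mJ/cm2 and 2.38 to 3.21 at 360 mJ/cm2, and that of miR-335-5p from 1.41 to 2.03, 1.73 to 2.04 and 2.14 to 2.64. Without control replicate 3 and UVB_90 replicate 3, a setting chosen after seeing the data, miR-335-5p differed by 1.41 at 90 mJ/cm2, the lowest value. The change of the 3p to 5p ratio ranged from 0.52 to 1.51, from 0.32 to 1.31 and from -0.04 to 0.96 when libraries were left out; the value of -0.039, at 360 mJ/cm2 without control replicate 1, was the change of direction. The calls over all arms ranged from 50 to 175, 90 to 207 and 183 to 252 when libraries were left out; 50 and 90 were reached without control replicate 1. With a replicate block they were 155, 171 and 229; same-numbered libraries correlated at -0.22 to 0.24 in their deviations, over 0.1 in 6 of 18 pairs, so the numbers were not taken to pair them. Totals without miR-1a-3p and miR-21a-5p moved the median of all arms at 360 mJ/cm2 from 0.02 to 0.22. The 3p share in controls rested on 208 to 249 reads of miR-335.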
